A study of Mus musculus with 3 samples.

Results

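Footprint-rich open regions were the stretches of accessible chromatin in which several separate protected sites were called in every library of mouse monocytes. A footprint is a short run of bases, inside a stretch cut by DNase I, that was cut less than its surroundings. Peaks of the longer deposited peak list of each library were merged where they overlapped by 1 bp or more, and an autosomal region was selected on its footprint counts when it held a peak of all 3 libraries and overlapped 5 or more footprints in each. This gave 3155 regions of the 33722 shared by all 3 libraries, or 9.36%, and of 61626 merged autosomal regions in all. They were compared with the 4272 shared regions that held 1 or 2 footprints in each library. The footprint counts chose both sets, so the counts are given as a description and carry no test.

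The study profiled primary monocytes of female adult B6CASTF1/J mice aged 2 months, a first-generation cross of the C57BL/6J and CAST/EiJ strains, by DNase-seq. Its 3 libraries formed 1 untreated group, were numbered biological replicates 1, 2 and 4, and shared 1 donor identifier. The labels do not state separate animals, so each SD below is a spread over libraries that can be technical. Replicates 1, 2 and 4 had 52701, 41558 and 47789 autosomal peaks and 140947, 105510 and 117030 autosomal footprints, and the number of reads behind them is unknown.

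Monocytes are circulating phagocytes of the innate immune system. DNase I cuts DNA where nucleosomes are displaced, and a transcription factor that stays bound within such an opening can shield its own site. Promoters rich in CpG dinucleotides are often open in many cell types and hold sites of general activators such as the SP and KLF factors, ETS factors and NRF1, whereas CTCF, an organiser of chromatin loops, often occupies a single long site away from genes. Absence of a footprint is no evidence that a factor is absent, because many factors leave little trace in cleavage.

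The first 4 sequences below show footprint-rich regions, and the last 2 show regions of the comparison set. Each is read from the plus strand of GRCm38.p6 (mm10) in the stretch of up to 300 bases with the most bases under footprints of all 3 libraries, and the capitals mark those bases.
Ppp2r3d promoter, the region with the most footprints, chr9:124424484-124424783: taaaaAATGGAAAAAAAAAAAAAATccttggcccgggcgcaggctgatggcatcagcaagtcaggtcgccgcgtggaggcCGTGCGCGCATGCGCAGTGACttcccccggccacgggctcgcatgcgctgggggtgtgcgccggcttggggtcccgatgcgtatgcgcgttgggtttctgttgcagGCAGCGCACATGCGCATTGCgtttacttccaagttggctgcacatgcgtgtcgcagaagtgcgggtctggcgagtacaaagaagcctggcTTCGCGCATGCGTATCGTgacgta
Start of the noncoding gene Gm7461, the most footprints outside coding promoters, chr8:4678350-4678649: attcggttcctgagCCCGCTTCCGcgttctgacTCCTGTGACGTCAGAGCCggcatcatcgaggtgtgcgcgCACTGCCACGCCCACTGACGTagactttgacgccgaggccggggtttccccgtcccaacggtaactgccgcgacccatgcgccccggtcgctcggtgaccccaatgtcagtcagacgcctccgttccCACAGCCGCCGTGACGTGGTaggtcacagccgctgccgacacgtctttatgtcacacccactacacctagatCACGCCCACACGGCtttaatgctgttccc
Mef2a promoter, the most footprints among myeloid transcription factors, chr7:67372829-67373128: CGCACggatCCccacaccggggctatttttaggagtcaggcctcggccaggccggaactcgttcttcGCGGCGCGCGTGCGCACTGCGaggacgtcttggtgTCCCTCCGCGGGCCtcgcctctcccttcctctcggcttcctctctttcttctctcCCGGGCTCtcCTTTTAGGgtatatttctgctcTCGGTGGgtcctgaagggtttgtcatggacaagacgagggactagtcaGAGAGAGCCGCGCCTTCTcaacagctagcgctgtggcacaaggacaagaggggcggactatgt
Intergenic region upstream of Junb, the most footprints at no annotated start near a listed gene, chr8:84985872-84986171: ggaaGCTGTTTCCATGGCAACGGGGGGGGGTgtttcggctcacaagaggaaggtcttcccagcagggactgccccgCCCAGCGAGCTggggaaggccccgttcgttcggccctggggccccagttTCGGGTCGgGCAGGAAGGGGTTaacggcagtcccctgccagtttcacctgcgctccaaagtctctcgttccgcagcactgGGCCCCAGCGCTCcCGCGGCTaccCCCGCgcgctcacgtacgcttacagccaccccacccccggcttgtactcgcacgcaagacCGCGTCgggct
Intergenic region near Zfp692, the tallest comparison region in the height range compared, chr11:58302461-58302700: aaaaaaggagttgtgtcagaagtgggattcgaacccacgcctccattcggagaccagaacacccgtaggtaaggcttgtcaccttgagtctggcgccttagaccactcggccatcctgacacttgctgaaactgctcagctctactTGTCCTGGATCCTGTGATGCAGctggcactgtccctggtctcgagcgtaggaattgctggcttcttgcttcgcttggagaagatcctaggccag
Start of the noncoding gene Tspan32os, the tallest comparison region outside coding promoters with a CTCF core under footprints of all 3 libraries, chr7:143008121-143008320: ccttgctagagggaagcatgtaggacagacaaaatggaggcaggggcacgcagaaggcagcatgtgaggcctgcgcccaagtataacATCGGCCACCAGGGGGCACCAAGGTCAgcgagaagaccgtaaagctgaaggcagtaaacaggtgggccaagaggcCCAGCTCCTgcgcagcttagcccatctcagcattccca

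The capitals in the Ppp2r3d stretch formed 4 separate blocks, and 2 of the 3 matches to the NRF1 pattern GCGCATGCG there touched them. The Mef2a stretch held 8 blocks within 300 bases. The Zfp692 region showed a single block of 22 bases. Its label as intergenic rests on GENCODE M21 alone, so a gene that this annotation does not list would not show. The Tspan32os region showed 2 blocks, and the longer of them covered the CTCF core CCANNAGGG.

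Footprints per region were skewed towards low counts in every library. Shared regions held a mean of 3.27, 2.81 and 2.94 footprints in replicates 1, 2 and 4, and footprint-rich regions 7.24, 6.81 and 7.08. The footprint-rich regions took 16.2%, 20.4% and 19.1% of all autosomal footprints of those libraries. By the lowest count over the 3 libraries, 1496 regions stood at 5, 827 at 6, 425 at 7, 199 at 8, 96 at 9 and 112 at 10 or more. At the edge of the choice, the 157 regions with exactly 5 in each library had a median width of 260 bp, and 78.3% lay at a coding promoter. The 319 with exactly 4 in each had a median width of 240 bp and a promoter share of 59.6%. The tallest of the former lay at Copg1, which encodes a coat protein subunit of transport vesicles, and the tallest of the latter at Hivep3, a zinc finger gene.

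**Figure D1:**
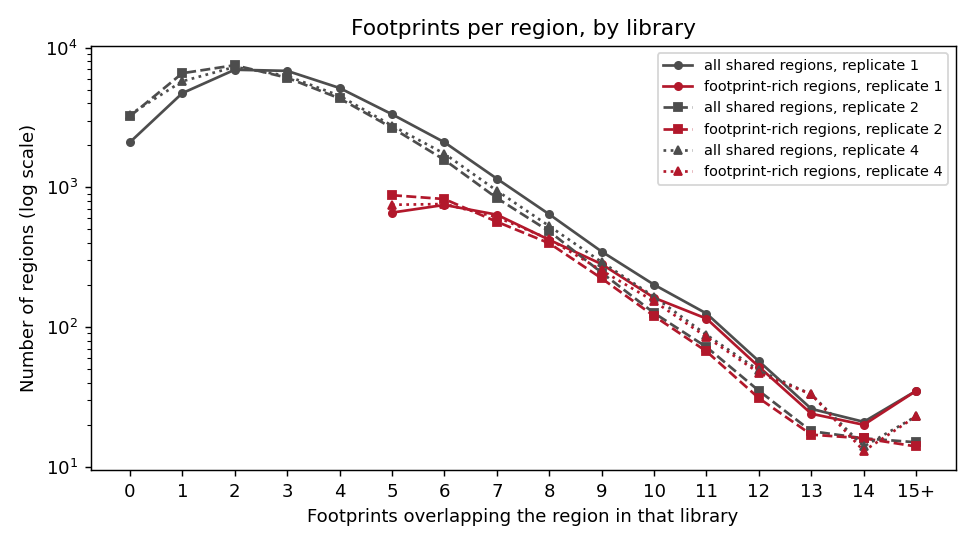
Number of autosomal regions shared by all 3 libraries (y axis, log scale) by the number of footprints each overlapped in a library (x axis, 15+ pools 15 or more), for all shared regions (grey) and footprint-rich regions (red), 1 line per library. Replicate 1 had the most regions at 5 or more, 8036 against 6084 in replicate 2 and 6641 in replicate 4.

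The count of 5 recurred between libraries for a minority of regions. Of the 11476 regions that reached 5 in any library, 5346 (46.6%) did so in 1 library, 2975 (25.9%) in 2 and 3155 (27.5%) in all 3. A choice made on the counts of 2 libraries can be read in the counts of the third, which it did not use. The third library still took part in the regions, which needed a peak of all 3 and had bounds merged over all 3. Of the regions at 5 or more in the other two libraries, 82.1% reached 5 in replicate 1, 71.0% in replicate 2 and 76.0% in replicate 4. The same level was reached by 23.8%, 18% and 19.7% of all shared regions, which were not matched for height. The mean count in the library whose counts were not used was 6.57 in replicate 1, 5.80 in replicate 2 and 6.17 in replicate 4. Regions with exactly 4 in the other two libraries reached 5 in 35.1%, 22.8% and 28.5% of cases, and those with 1 or 2 in 5.33%, 1.79% and 1.75%. Across the 33722 shared regions Spearman's rho of the counts between pairs of libraries was 0.583 to 0.609, and within the footprint-rich regions it was 0.444 to 0.501. Peak heights of the footprint-rich regions had a rho of 0.974 to 0.982 between libraries. These are correlations across regions, which are not independent replicates.

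Footprint-rich regions were wide and tall. Their median width was 340 bp, with the middle of the distribution from 260 to 440 bp and a largest width of 1940 bp, against a median of 240 bp over all shared regions. Wider regions have more room for footprints, so width is tied to the choice. Their median height, the deposited density of cuts at the peak on a scale that is not stated, was 5.87, 4.97 and 7.77 in replicates 1, 2 and 4, against 1.46, 1.19 and 1.66 over all shared regions. That is a ratio of 4.30 ± 0.347 (SD, n = 3). Ranked by height within each library and averaged, their median percentile was 90.3. None of the 2773 regions below the 10th height percentile was footprint-rich, against 11.2% of those from the 70th to the 80th percentile and 48.3% of those above the 90th.

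Peak height is tied to the number of cuts, and more cuts give more power to call footprints, so comparison regions were weighted to the heights of the footprint-rich ones. Only height bins of 5 percentiles with 20 or more comparison regions were used. That kept 1061 footprint-rich regions (33.6%), all below the 85th percentile, and 3813 comparison regions, whose unequal weights make them worth about 244 equally weighted ones. For the tallest footprint-rich regions there were too few comparison regions of like height: above the 90th percentile 17 shared regions held 1 or 2 footprints in each library, against 1625 footprint-rich ones. At like height the footprint-rich regions had a median width of 400 bp against 220 bp.

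Coding promoters, taken as regions within 1 kb of the start site (TSS) of a protein-coding transcript of GENCODE M21, held most of the footprint-rich regions. Of the 3155, 2667 (84.5%) lay at a coding promoter, against 39.5% of all shared regions. Seen from the other side, 20% of the 13334 shared promoter regions were footprint-rich and 2.39% of the 20388 other shared regions. In the height range compared the promoter share was 71.3% in footprint-rich regions and 38.8% in regions with 1 or 2 footprints, a difference of 32.4 percentage points. The difference was between 21.5 points, without replicate 4, and 69.2 points, with no weighting by height, under all other settings run. With height and width weighted together, 365 footprint-rich regions (11.6%), of median width 260 bp, had a promoter share of 83.6%. Comparison regions worth about 60.7, of median width 220 bp, had 47.2%. Few comparison regions were wide, so this match speaks mainly for narrow regions. From the 50th to the 90th height percentile, at 300 to 399 bp, 83.8% of 439 footprint-rich and 38.3% of 60 comparison regions lay at a promoter. At 400 to 499 bp the order turned, with 72.2% of 345 and 81.8% of 22. Each wider class held 3 comparison regions. When each library alone chose its regions, the shares were 67.9%, 73.7% and 72.2% in replicates 1, 2 and 4, against 48.7%, 54.9% and 56.6% at like height. Those differences came to 17.9 ± 1.90 points (SD, n = 3), and each was larger than the SD.

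**Figure D2:**
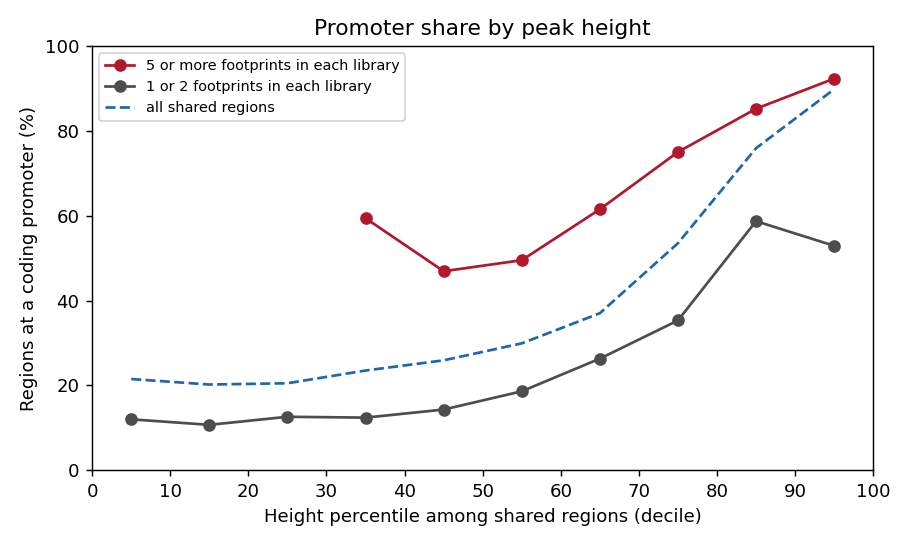
Share of regions at a coding promoter (y axis, %) by height percentile among shared regions (x axis, in steps of 10 percentiles), for footprint-rich regions, regions with 1 or 2 footprints and all shared regions. Steps with fewer than 15 regions of a set are not drawn. From the 50th percentile up the footprint-rich regions ran from 49.5% to 92.3% and the comparison regions from 18.6% to 58.7%, with the last point of the latter, 52.9%, resting on 17 regions.

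The gap between the sets was present in each step of 10 percentiles with enough regions. From the 60th to the 70th percentile 61.5% of 161 footprint-rich regions lay at a promoter, against 26.3% of 300 comparison regions. From the 80th to the 90th percentile the shares were 85.2% of 813 and 58.7% of 46.

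The sequence of the footprint-rich regions was rich in CpG. In the central 300 bp the median ratio of observed to expected CpG was 0.847, against 0.411 over all shared regions. At like height it was 0.764 in footprint-rich and 0.400 in comparison regions, and their median GC contents were 62.0% and 55.3%. The gap in CpG ratio of 0.364 fell to 0.161 without replicate 4 and to 0.0581 when every height bin with any comparison region was used. Central windows with at least 50% GC and a ratio of at least 0.6 are called CpG island-like here. Of the 11712 shared regions of that kind 22.5% were footprint-rich, and of the 22010 others 2.34%. In the height range compared promoters were more frequent in the footprint-rich set within both kinds. CpG island-like footprint-rich regions lay at a coding promoter in 91.7% of 696 cases and comparison regions of the same kind in 82.6% of 402, weighted. Among regions that were not CpG island-like the shares were 32.3% of 365 and 19.0% of 3411. The weights were set over both kinds together, and within each kind the footprint-rich regions stood slightly lower, at median height percentiles of 77.7 against 80.2 and 71.6 against 73.4.

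Within promoters, more footprints lay upstream of the TSS than downstream. The midpoint of 87.4% of the 2667 promoter regions was within 250 bp of a coding TSS, 72.1% of midpoints were upstream, and the median position was -53.5 bp. In the 2213 footprint-rich promoters with starts in 1 direction, 66.7% ± 0.207 (SD, n = 3) of footprints were upstream, and the 200 bp before the TSS held 46.7% ± 0.603. The densest 50 bp were those directly before the TSS, with 0.981, 0.933 and 0.986 footprints per promoter in replicates 1, 2 and 4. The next 50 bp, directly after the TSS, held 0.762, 0.746 and 0.762. The profile ran along with where the regions were open. Per 50 bp that lay inside a region the values were 1.15 ± 0.0351 directly before the TSS, 0.997 ± 0.0126 directly after it and 0.846 ± 0.0635 from 100 to 149 bp after it, where 83.8%, 75.9% and 33.5% of the stretch was open. In the height range compared, the 100 bp upstream held 25.3% ± 0.739 of footprints in 647 footprint-rich promoters and 36.2% ± 2.95 in 540 promoters with 1 or 2 footprints, weighted to like height. These shares were not matched for the width of the regions. From -300 to -251 bp, 39.6% of the stretch was open in those footprint-rich promoters and 5.30% in the comparison promoters.

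**Figure D3:**
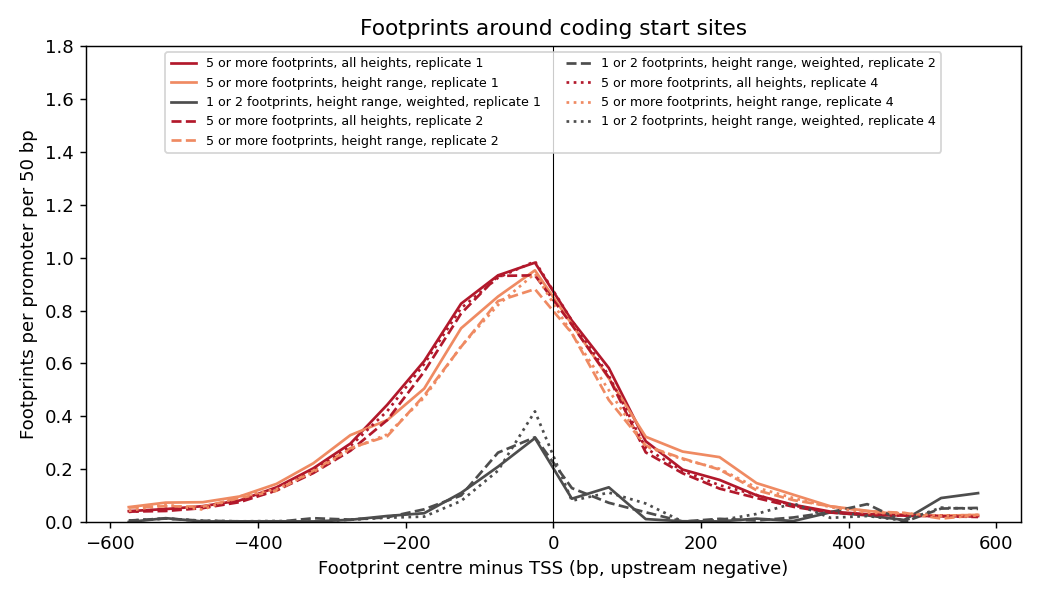
Footprints per promoter in bins of 50 bp (y axis) by distance of the footprint centre from the TSS in bp (x axis, upstream negative), for 2213 footprint-rich promoters of all heights (red), the 647 of them in the height range compared (orange) and 540 promoters with 1 or 2 footprints weighted to that range (grey), 1 line per library. The 3 sets peaked in the bin directly before the TSS, at means of 0.967, 0.924 and 0.353 footprints per promoter.

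Promoters with coding starts on both strands made up 13.7% of the footprint-rich regions and 4.09% of all shared regions. In the height range compared the shares were 8.95% and 6.95%, but among promoters alone the order turned, with 12.6% of footprint-rich and 17.9% of comparison promoters. It also turned with height and width weighted together, at 9.04% and 10.2%.

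Neighbouring footprints in footprint-rich regions were closely packed. The median distance between centres was 41.0, 42.0 and 41.5 bp in replicates 1, 2 and 4, and 36.9% ± 0.300 of distances were at most 30 bp. The distribution had a first peak near 20 bp, a dip near 40 bp and a further, lower peak near 50 to 65 bp in all 3 libraries. At like height the median was 44.5 ± 0.5 bp, against 64.2 ± 2.31 bp in the 665 comparison regions with exactly 2 footprints in each library. A region that holds more footprints in a given width must hold them closer together, so this difference is partly set by the choice. The spacing changed little with the count itself. Regions whose lowest count was 5 had a median distance of 42.5 ± 0.866 bp and a width of 280 bp, and those at 9 or more had 41.2 ± 0.764 bp and 540 bp. Footprints per 100 bp were 1.96 ± 0.0397 and 2.11 ± 0.0643 in those groups, and higher counts went with wider regions.

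**Figure D4:**
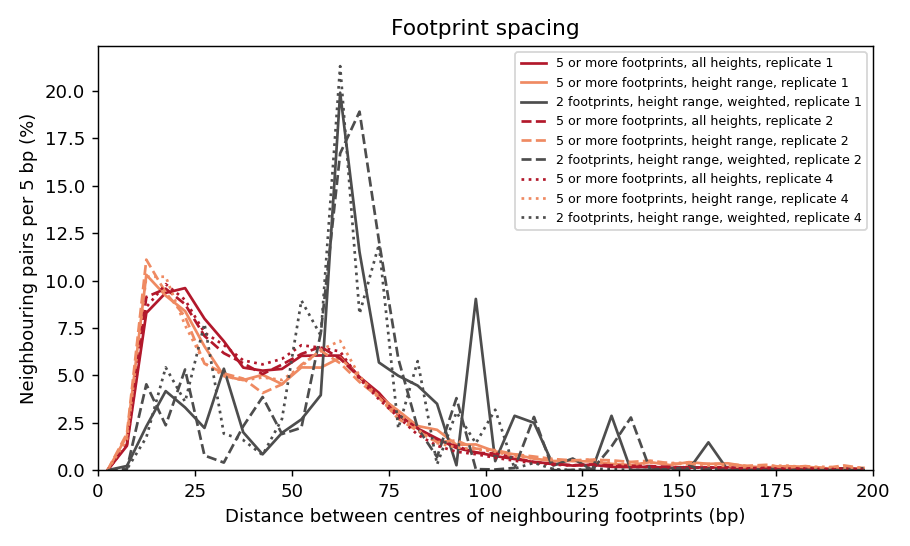
Share of neighbouring pairs of footprints (y axis, % per 5 bp) by the distance between their centres (x axis, bp), for footprint-rich regions of all heights (red), those in the height range compared (orange) and comparison regions with 2 footprints, weighted to that range (grey), 1 line per library. The red lines nearly coincide, with medians of 41.0 to 42.0 bp, the orange lines have medians of 44.0 to 45 bp, and the comparison lines are uneven because few tall regions hold 2 footprints.

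Single footprints were narrower in the footprint-rich regions at like height. Their mean width was 11.8, 11.0 and 11.6 bp in replicates 1, 2 and 4, against 17.5, 16 and 17.1 bp in the comparison regions. Footprints of 30 bp or more made up 1.74% ± 0.461 of the former and 13.8% ± 3.15 of the latter. A stretch called as 1 long footprint counts once towards the choice, so footprint width is not independent of it. With no weighting by height the means were 14.1 and 13.7 bp, so the direction of this difference depends on comparing like heights. Footprints covered 28.6% ± 1.84 of the bases of a footprint-rich region at the median.

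Positions of footprints recurred between libraries. In the footprint-rich regions 59.3% to 67.1% of footprint centres lay under a footprint of another library, over the 6 ordered pairs, while 24.0% to 27.3% of the bases were under one. At like height the share of centres was lower in the footprint-rich regions, 44.9% to 52.5%, than in the comparison regions, 54.0% to 62.2%. Yet 15.7% to 18.3% of the bases of the former and 11.6% to 12.8% of those of the latter were under a footprint. Single footprints were wider in the comparison regions, at means of 16.9 ± 0.756 against 11.4 ± 0.423 bp. The shares of centres were not matched for that width. In 3091 regions (98.0%) at least 1 stretch lay under footprints of all 3 libraries, with a median of 5 such stretches and at most 22. The other 64 regions had none. Among them were the Zfp36l2 promoter region, whose gene encodes an mRNA decay factor, with 10, 7 and 14 footprints over 1326 bp, and that of the zinc transporter gene Slc30a7, with 12, 10 and 12 over 1700 bp. Both were of moderate height, at the 54.6th and 47.9th percentile.

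Footprints were searched, with 5 bp added on each side and on both strands, for 21 consensus patterns. A match describes the letters and is not a bound site. The GC box GGGCGG, the core recognised by SP and KLF factors, was in 19.1%, 18.8% and 19.6% of footprints of the footprint-rich regions in replicates 1, 2 and 4. For a comparison inside the same regions, each footprint was set beside the adjacent stretches of equal width that lay in the region and clear of footprints. Of 22831, 21493 and 22322 footprints 15901, 16104 and 15496 had such a flank, and the shares that follow are over these. The GC box was in 16.6% ± 0.273 of them and 4.76% ± 0.5 of the flanks. The ETS core CCGGAAG was in 2.30% ± 0.0788 of footprints and 0.950% ± 0.0628 of flanks. For the NRF1 pattern the shares were 0.759% ± 0.0776 and 0.0137% ± 0.00161, and for the EGR pattern GCGGGGGCG 0.702% ± 0.05 and 0.146% ± 0.0189. The cyclic AMP response element TGACGTCA was in 0.623% ± 0.0372 of footprints and 0.0265% ± 0.0134 of flanks. All of these gaps were larger than the SDs. The base composition of the flanks was not matched to that of the footprints. The CCAAT box, recognised by NF-Y, went the other way, with 3.85% ± 0.110 of footprints and 5.41% ± 0.194 of flanks. The C/EBP pattern TTGCNNCAA, for factors that act in myeloid cells, was in 0.0464% ± 0.0160 of footprints and the longer PU.1-type pattern GAGGAAGT in 0.200% ± 0.00589. Over all footprint-rich regions neither exceeded its share of the flanks, 0.0865% and 0.230%. Outside coding promoters, in the height range compared, the PU.1-type pattern was in 0.843% ± 0.0247 of footprints and 0.631% ± 0.131 of flanks. The C/EBP pattern was in 0.0566% and 0.0674% there.

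The other patterns were rarer or less unequal. The E box CACGTG was in 1.40% ± 0.125 of footprints and 0.633% ± 0.0994 of flanks. The short cyclic AMP response pattern TGACGT, which the full element contains, was in 1.89% ± 0.0553 and 0.583% ± 0.121, and the pattern TCTCGCGAG of ZBTB33 in 0.294% ± 0.0355 and 0.0498% ± 0.0305. More often than in flanks, in each library, were also found the YY1 pattern AAGATGGCG (0.259% against 0.172%), the KLF pattern CCACACCC (0.352% against 0.175%), the ZNF143 pattern ACTACAATT (0.0526% against 0.0149%) and the TATA box TATAAA (0.282% against 0.190%). Some other patterns differed little or were rarer under footprints. They were the RUNX pattern TGTGGTT (0.145% against 0.293%), the AP-1 pattern (0.282% against 0.348%), the IRF pattern GAAANNGAA (0.273% against 0.252%, higher in all 3 libraries by less than the SD of 0.0275) and the NF-kappaB pattern GGGANNTTC (0.194% against 0.218%). The CCAAT box with its flank, AGCCAAT, was in 0.740% of footprints and 1.07% of flanks.

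The whole central 300 bp held a GC box in 74.3% of footprint-rich regions and 34.7% of all shared regions. The ETS core was there in 20.5% and 9.15%, the NRF1 pattern in 5.64% and 1.61%, the EGR pattern in 6.56% and 2.37% and the CTCF core in 6.78% and 11.3%. RUNX, AP-1 and IRF patterns were rarer there than in all shared regions, at 3.45% against 7.25%, 4.88% against 10.4% and 4.88% against 8.64%. These patterns were also rarer in promoter regions than elsewhere, and outside coding promoters the AP-1 pattern was in 14.8% of footprint-rich regions and 14.2% of all shared regions. There the RUNX pattern was in 8.20% and 9.77%, and the IRF pattern in 6.56% and 10.4%.

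The CTCF core was in a smaller share of footprints in the footprint-rich regions than in the comparison regions of like height. It was in 0.564%, 0.586% and 0.589% of footprints of the footprint-rich regions and in 6.08%, 6.05% and 6.22% of those of the comparison regions. The stretches searched were shorter in the former, with means of 21.8, 21 and 21.6 bp against 27.5, 26 and 27.1 bp. Counted per region, which the larger number of footprints in the former does not dilute, the core was in the central 300 bp of 7.63% of footprint-rich and 15.5% of comparison regions. The difference per footprint of -5.54 points lay between -6.39 and -3.85 points in the other settings run, all 10 of the same sign. It rested on regions outside coding promoters, where 1.00% ± 0.0819 of footprints in 305 footprint-rich regions and 9.52% ± 0.146 of those in 3224 comparison regions held the core. Within coding promoters the shares were 0.423% ± 0.0350 and 0.472% ± 0.0520, a difference of less than the SD. The weights were set over both places together, and the median height percentiles were 77.5 and 79.9 at promoters and 70.7 and 72.3 outside them.

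**Figure D5:**
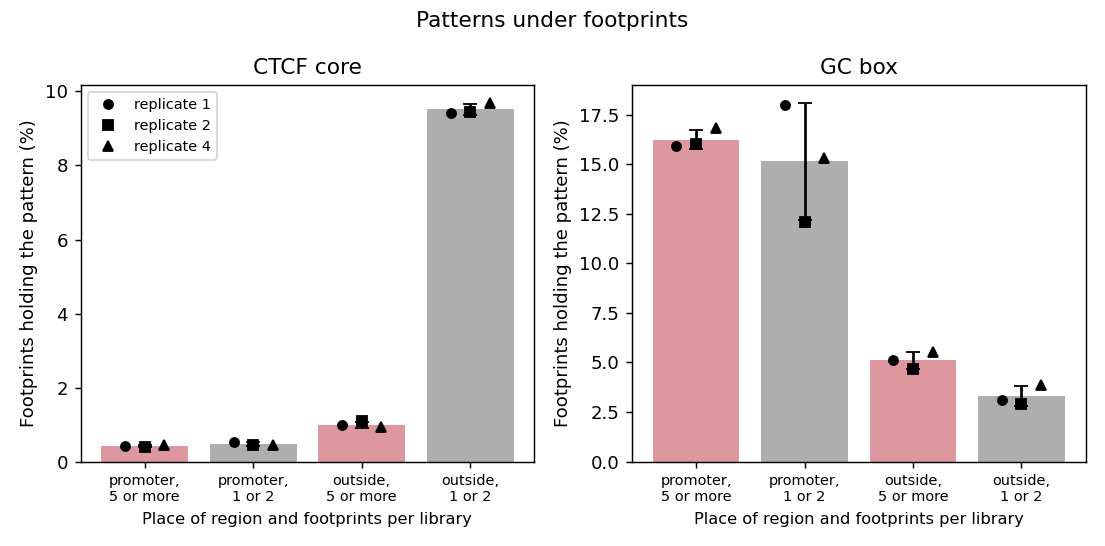
Share of footprints holding the CTCF core (left, y axis in %) and the GC box (right, y axis in %), for regions at coding promoters and outside them (x axis), with 5 or more footprints per library (red) or 1 or 2 (grey, weighted to like height). Bars are means of 3 libraries, error bars SDs, and points the libraries. CTCF stood at 9.52% in comparison regions outside promoters and at 1.00% or less in the other sets.

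The GC box gave no stable difference from the comparison regions. At like height it was in 13.2% ± 0.452 of footprints of the footprint-rich regions and 7.75% ± 1.19 of those of the comparison regions, 5.48 points apart. The sign turned to -6.98 points without replicate 4 and to -3.72 points when every height bin with a comparison region was used. Within coding promoters the shares were 16.3% ± 0.483 and 15.1% ± 2.92, a difference of less than the SD. Outside promoters they were 5.11% ± 0.429 and 3.29% ± 0.502, with a difference of 1.82 points that kept its sign in all 10 other settings, between 0.766 and 8.90 points. The difference for the ETS core, 1.20 points, likewise changed sign in 3 of the 10 other settings.

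The region with the most footprints lay at Ppp2r3d, which encodes a regulatory subunit of protein phosphatase 2A. It spanned chr9:124422901-124424840, 1940 bp, and held 35, 33 and 33 footprints in replicates 1, 2 and 4. The next lay at Fbrs, with 15, 18 and 20 footprints, at the tRNA splicing endonuclease gene Tsen34, with 20, 16 and 17, and at the kinase gene Gsk3b, with 13, 18 and 19. Counts of these 3 regions overlapped between libraries and did not separate them from each other. The next 7 promoters, at Tgif1, Oxsr1, Flcn, Rev3l, Sec16a, Wipi1 and Rbm15, had means of 16 to 16.7. They differed in steadiness. Rev3l, the catalytic subunit of a translesion DNA polymerase, held 17, 16 and 16 footprints, while the homeobox gene Tgif1 held 22, 15 and 13. The promoters of Smc4, a condensin subunit, Zbtb45, Rpl37a, Hnrnph3 and Sprtn were among the densest, with 3.33 to 3.48 footprints per 100 bp.

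Gene classes were described by the share of their genes whose promoter was footprint-rich among those with a shared promoter region. Over all autosomal coding genes this was 3054 of 10703, or 28.5%. Gene classes differ in promoter height, so the share over all genes of like height is given beside each. They also differ in width, which was not matched, and its part in the shares was not tested. The median promoter region was 260 bp wide over all genes. It was 330 bp for myeloid transcription factors, 320 bp for immediate-early genes and chromatin modifiers, and 300 bp for cyclins. It was 260 bp for splicing and translation initiation factors, 320 bp for monocyte genes and 220 bp for aminoacyl-tRNA synthetases.

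Genes of RNA processing, the cell cycle, chromatin and translation initiation were among the classes with the highest shares, together with the immediate-early genes. Splicing and RNA-binding factors had 25 of 48 (52.1%, against 45.8% at like height), with Sf3a2 at 14, 13 and 11 footprints and Hnrnpd at 12, 12 and 12. Cyclins and cyclin-dependent kinases had 20 of 40 (50% against 33.2%), among them Ccnk, which partners transcription kinases, with 10, 10 and 11. Chromatin modifiers and remodellers had 30 of 61 (49.2% against 34.9%), led by Kmt2e and the demethylase gene Kdm7a. Kmt2e, at 15, 8 and 15, and Kdm7a, at 14, 8 and 14, were both lower in replicate 2. Translation initiation factors had 23 of 48 (47.9% against 37.7%), with Eif4a2 at 13, 11 and 11.

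Other housekeeping classes lay on both sides of the share of genes of like height. Cytosolic ribosomal protein genes had 35 of 78 (44.9% against 43.5%), with Rps23 at 11 in each library. Mitochondrial ribosomal protein genes had 25 of 78 (32.1% against 29.0%), proteasome subunits 12 of 36 (33.3% against 36.3%) and respiratory chain subunits 25 of 76 (32.9% against 36.2%). Heat shock proteins and cochaperones had 22 of 53 (41.5% against 37.1%) and replication-dependent histones 13 of 55 (23.6% against 18.9%). These are counts of genes, and neighbouring genes can share 1 region. Hist1h3a and Hist1h4a did so, as did Hist1h2ai and Hist1h2bl. Aminoacyl-tRNA synthetases, which charge tRNAs, had 8 of 38 (21.1% against 37.0%). Zfp zinc finger genes had 57 of 291, the same 19.6% as genes of like height.

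Myeloid transcription factors and immediate-early genes had higher shares than the list of monocyte genes, with no test of the difference. Their promoter regions were also taller, at median height percentiles of 86.8 and 93.8 against 65.5. Myeloid transcription factors had 15 of 34 (44.1% against 32.1%). Mef2a held 13, 12 and 11 footprints in a 420 bp region, Klf13 11, 11 and 13, Klf6 9, 10 and 7, and Cebpb, a C/EBP factor of monocytes, 7, 7 and 12. Immediate-early genes, which respond first to a stimulus, had 17 of 34 (50% against 40.6%), with Klf10 at 11, 10 and 14, the phosphatase gene Dusp1 at 12, 12 and 10 and the AP-1 subunit gene Fosl2 at 11, 9 and 11. Dusp and Socs feedback genes, which include Dusp1, had 5 of 25 (20% against 28.8%). Lysosomal genes had 9 of 21 (42.9% against 37.1%), with the cholesterol carrier gene Npc2 at 9, 9 and 10. Monocyte genes had 3 of 21 (14.3% against 15%). Of those 3, Csf2ra, a growth factor receptor subunit, held 8, 6 and 8 footprints, and Treml4, a receptor of the immunoglobulin family, 8, 6 and 7. Interferon response genes had 2 of 15 (13.3% against 14.5%), among them Isg20 at 6, 7 and 7. No test was made of these shares, and the classes with fewest genes give them with the least precision.

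Most defining markers of the labelled cell type had an open promoter. Of 12 monocyte markers, 9 had a promoter region shared by all 3 libraries (Csf1r, Cx3cr1, Itgam, Fcgr4, Cd14, Lyz2, Spi1, Csf2ra and Itgal). Ccr2, Ly6c2 and Cd300e had none. Over all autosomal coding genes 51.7% had such a region, and the difference was not tested. Csf2ra alone of the 9 markers was footprint-rich. That is 1 of 9, beside 28.5% of all genes and the 15% of genes of like height given above for the longer list of monocyte genes, and so few markers do not set the share apart from either. Promoter regions shared by all libraries were found for 1 of 6 T cell markers (Cd5), 1 of 6 B cell markers (Blnk), 1 of 5 erythroid markers (Tal1), 2 of 6 neutrophil markers (S100a8 and Csf3r) and 0 of 6 hepatocyte markers, and none of these was footprint-rich.

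Outside coding promoters there were 488 footprint-rich regions (15.5%). Of these 159 lay at another annotated start, 95 of them at a noncoding RNA gene. The most footprints were at Gm7461, chr8:4677641-4678680, with 16, 14 and 17, and at Frmd8os, chr19:5845321-5846020, with 12, 13 and 19. The 329 regions at no annotated start were 201 intergenic, 111 intronic and 17 exonic ones. Their median width was 420 bp, their median height percentile 78.2 and their median CpG ratio 0.405, against 340 bp, 91.5 and 0.873 at coding promoters. The median distance to the nearest coding TSS was 14.9 kb. An intronic region of Kdm6b, a histone demethylase gene, at chr11:69410281-69411100, held 15, 13 and 15 footprints. Intergenic regions nearest to Arid1a and Rps6ka1 held 13, 14 and 13, and 12, 11 and 13.

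Regions at no annotated start lay near immediate-early genes and myeloid transcription factors more often than near genes at large. Of all 20696 autosomal coding genes, 567 (2.74%) had such a footprint-rich region within 50 kb of a coding TSS. Among immediate-early genes it was 10 of 34 (29.4%): Fos, Fosl1, Junb, Nr4a1, Klf4, Dusp1, Btg2, Zfp36, Zfp36l2 and Mcl1. Among myeloid transcription factors it was 9 of 36 (25%): Cebpb, Irf5, Klf4, Klf13, Nr4a1, Runx1, Runx3, Batf and Ets2. Klf4 and Nr4a1 are in both lists. Genes of these classes also had more open regions nearby, so the regions themselves were counted too. Of 181 shared regions at no annotated start within 50 kb of immediate-early genes 14 (7.73%) were footprint-rich, of 157 near myeloid transcription factors 11 (7.01%), and of 13609 near any coding gene 267 (1.96%). The shared regions near immediate-early genes had a median height percentile of 59.7 and those near myeloid transcription factors 48.5, against 39.4 near any gene. Their median widths were 295 and 272 bp, against 220 bp near any gene. The part of height and of width in these counts was not tested. Monocyte genes had 3 of 116 (2.59%) and interferon response genes 0 of 23. The list of T cell, B cell and natural killer cell genes had 3 of 45 (6.67%), all near Klrb1c, so shares of this size were not limited to the immediate-early and myeloid factor genes.

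Some of these regions were tall and others modest. The region 18.5 kb upstream of Fos, an AP-1 subunit gene, at chr12:85455121-85455580, held 9, 10 and 10 footprints and stood at the 98.1th height percentile. The region 7.30 kb upstream of Junb, at chr8:84985761-84986280, held 9, 14 and 13, and the coding TSS nearest to it belonged to Hook2. In an intron of Batf, 18.9 kb downstream of the TSS, a region held 8, 8 and 11. The region 32.0 kb upstream of Cebpb held 10, 7 and 6 footprints at the 86.9th height percentile with a CpG ratio of 0.230. Near Runx1 a region 41.4 kb upstream held 7, 5 and 5 footprints at the 65.5th percentile. Near Fosl1 a region of 740 bp, 39.0 kb upstream, held 8, 7 and 7 at the 46.7th percentile.

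Footprints of the 329 regions at no annotated start that had a flank clear of footprints held a GC box in 6.78% ± 0.166 of cases, against 1.71% ± 0.203 of the flanks. The short cyclic AMP response pattern TGACGT was in 1.78% ± 0.125 and 0.466% ± 0.166, and the CTCF core in 1.08% ± 0.123 and 0.316% ± 0.0887. The AP-1 pattern TGANTCA gave 0.930% ± 0.225 of footprints and 0.993% ± 0.140 of flanks, a difference of less than the SD. The PU.1-type pattern gave 0.613% ± 0.0997 and 0.539% ± 0.107, higher under footprints in all 3 libraries by less than the SD.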

How the data were processed

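The authors deposited, for each library, 2 peak lists and 1 footprint list on mm10. Per the deposited descriptions each was made from the filtered alignment of that library, without pooling. Aligner, peak caller and footprint settings: not given in the sources used here. Peak height is a signal that the authors computed, on a scale not stated. The deposited footprints carried 1 constant p-value, 0.01, so only their positions were used. The deposited file of false discovery rates was not used.

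Members and lists were chosen with earlier results of these data known. Peaks of the longer list were merged and footprints counted by overlaps of 1 bp or more. Values were computed per library and no test was made. Comparison regions were weighted in height bins of 5 percentiles. The minimum of 20 comparison regions a bin, the windows of 50 kb, the flanks beside footprints, the pattern counts by place and 2 of the comparison sequences and the Junb sequence were chosen after the data were seen. Named regions were the 12 with the most footprints, the 8 outside promoters, the 6 densest, up to 4 for each of 24 gene classes, and the tallest at exactly 5 and 4. Some of these are not reported here. Printed stretches are the windows of at most 300 bases with the most bases under footprints of all 3 libraries, the middle one of ties, and no more than 30 bases of annotated UTR. CpG ratios and GC were taken in the central 300 bp. Reference: GRCm38.p6 and the GENCODE M21 basic annotation. Scripts used Python 3.11.15, numpy 2.4.6, pandas 2.3.3, pyfaidx 0.9.0.4 and matplotlib 3.10.9 and were tested on simulated regions. Alternatives were thresholds of 4 and 6, footprints wholly inside a region, the shorter peak list, each library left out, promoters of 500 bp, other weightings, and, added after the data were seen, every height bin.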

Additional observations from a re-analysis of the deposited data

How the results depend on the processing

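Of 93 values recomputed under other settings, 48 moved by less than the spread between libraries (for the number of regions, by less than 1.5 times), 43 moved further and 2 changed sign. Requiring 6 or more footprints gave 1659 regions and 4 or more 6054. Their median widths were 380 and 300 bp, promoter shares 87.8% and 78.1%, footprint distances 40.5 and 42.5 bp, and shares of genes with a footprint-rich promoter 15.8% and 48.8%. With 4 or more the height percentile was 87.5 and the CpG ratio 0.823. Footprints wholly inside the region gave a width of 360 bp and a distance of 41.0 bp, and the shorter peak list a height percentile of 86.7. The promoter share of comparison regions was 31.6% with 500 bp promoters, 47.2% with height and width weighted, 15.4% with no weighting and 48.2% with every height bin. The GC box difference was 15.7 points with no weighting and -3.72 points with every height bin. The cause of that change of sign was not tested.

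Leaving out each library in turn gave 3553 to 4262 regions, a width of 320 bp in each case, height percentiles of 89.1 to 89.9, promoter shares of 80.0% to 82.0%, comparison promoter shares of 43.4% to 55.4%, distances of 40.0 to 40.8 bp, CpG ratios of 0.831 to 0.842, gene shares of 30.8% to 34.9% and GC box differences of -6.98 to 1.92 points, the lowest without replicate 4. With footprints wholly inside the region 89.4% of the regions were kept, and with the shorter peak list 99.2% overlapped a footprint-rich region. Read depth is unknown, so a low count of footprints can be a limit of depth.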
